A study of Mus musculus with 9 samples.

Results

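Genes whose messenger RNA level changed in mouse hepatocytes during 9 h with the herbicide paraquat at 126 µM are described here, against the same cells in medium alone. The cells were TAMH, a line of mouse hepatocytes that arose from mice overexpressing transforming growth factor alpha, a ligand of the EGF receptor. All groups were grown at passages 30 to 40 in a supplemented medium with dexamethasone, nicotinamide, insulin, transferrin and selenium, so every array carries a glucocorticoid and an insulin background. The labels describe 3 dishes of 150 cm2 per treatment, grown to confluence. Nothing states that replicates were independent cultures. The p-values therefore cover the variation among these arrays alone, and that variation may be technical. The comparison used 6 of the 9 arrays of the series, 3 with paraquat and 3 in medium alone, and the other 3 held cells given diquat at 18 µM for 9 h. As a model this is 1 transformed line at 1 dose and 1 time, with no other liver cell added. All features carrying exactly 1 gene symbol were taken. A gene with several such features was represented by its brightest, judged by the mean of the 9 arrays, which gave 22180 genes from 34472 features in all.

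Paraquat is a bipyridylium salt that accepts an electron from flavoprotein reductases and passes it to oxygen. The cycle spends NADPH and yields superoxide, which superoxide dismutases turn into hydrogen peroxide, and glutathione and thioredoxin systems then remove the peroxide. Cells under such stress are known to use several transcription programmes. NRF2 drives antioxidant and detoxification genes. ATF4, translated when initiation factor eIF2 alpha is phosphorylated, drives amino acid supply genes. MAP kinases drive immediate early genes and their own inhibitors. Hepatocytes in addition make most plasma proteins, detoxify drugs, and burn and synthesise fat.

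The labelled cell type was checked against its markers. Of 16 hepatocyte markers 15 were measured, and 14 of these lay above the median gene's control level of 6.43 on the log2 scale. Albumin (Alb) stood at 12.73 ± 0.02 in controls and 12.73 ± 0.07 with paraquat (SD, n = 3 each), near the top of the array's range, where a change can be compressed. Serpinc1, the antithrombin gene, was the exception among these markers, at 5.40 in controls. Of the markers of other liver cells, 7 of 8 for cholangiocytes and progenitors, 5 of 11 for stellate cells and fibroblasts, 4 of 10 for macrophages, 1 of 7 for lymphocytes and 0 of 9 for endothelium lay above the median gene. Among these were the matrix genes Dcn (11.07, a level above that of 98.3% of genes) and Col1a1 (9.18) and the endotoxin receptor gene Cd14 (10.14), while the pan-leukocyte gene Ptprc and the macrophage gene Adgre1 stood at 5.38 and 5.53. Levels of different features are not on a common scale, so this check is rough. No marker of the endothelial, macrophage, lymphocyte or stellate lists passed the test between the groups, among 9, 10, 7 and 11 measured. Array medians lay between 6.41 and 6.45, and no 2 arrays held identical values. The first principal component held 54.4% of the variance and separated the groups, with the paraquat arrays at 6.83, 9.63 and 9.75 and the controls between -8.99 and -8.36.

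Paraquat changed a limited part of the transcriptome, and most changes were small. In limma, 1014 genes passed an adjusted p of 0.05 with Benjamini-Hochberg adjustment over all 22180 genes, which is 4.57%. The test called 517 genes higher (2.33%) and 497 lower (2.24%). The median size of a called change was 1.22-fold, 93 genes reached 1.5-fold (66 higher, 27 lower) and 24 reached 2-fold (20 higher, 4 lower; 0.108% of genes), while 413 stayed under 1.2-fold. With all 34472 features tested, 1014 passed as well (2.94%). The median change over all genes was 0.00 on the log2 scale, and the 5th and 95th percentiles were -0.16 and 0.15. For all 1014 genes the 3 paraquat arrays lay outside the range of the 3 controls. That separation was seen in 4304 genes, 19.4% of those tested. Calls were unevenly spread over levels. With the genes cut into 5 equal classes by level, the share called was 0.0225%, 0.473%, 2.01%, 9.47% and 10.9% from the dimmest to the brightest class. The counts for well-expressed gene groups are therefore best read against about 10% for rises and falls together. Of 4436 genes in the brightest class 266 were higher and 217 lower, and of 4436 in the next-brightest class 210 were higher and 210 lower.

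**Figure D1:**
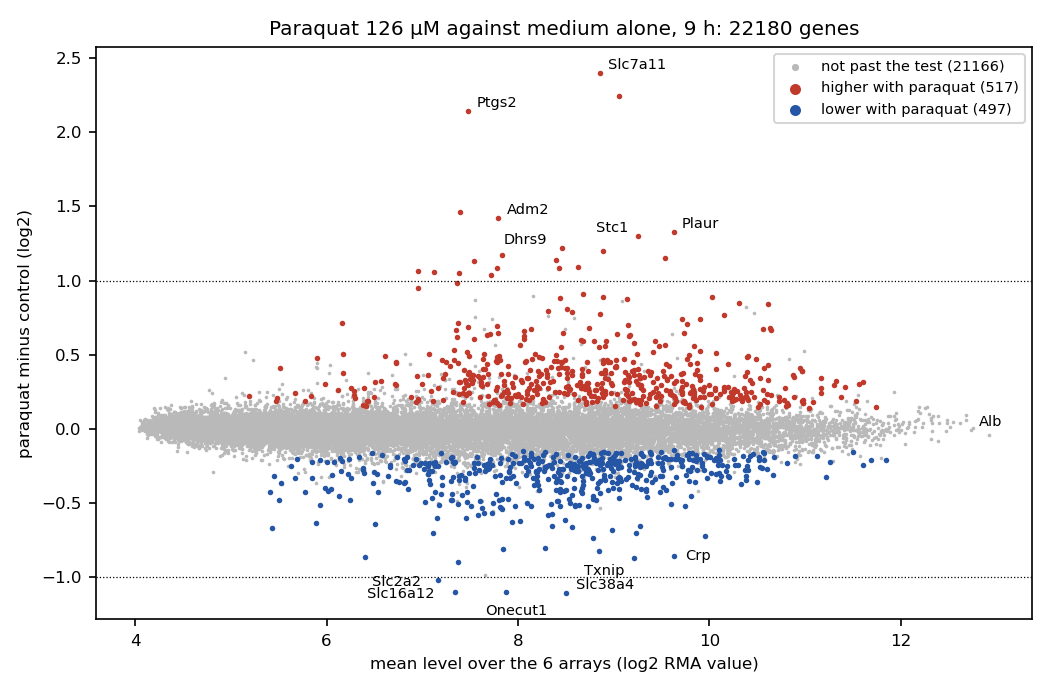
Each point is 1 of 22180 genes, with its mean log2 level over the 6 arrays on the x axis and the log2 difference of paraquat minus control on the y axis; red points (517) were higher and blue points (497) lower at an adjusted p of 0.05, and dotted lines mark a 2-fold change. Slc7a11 and Ptgs2 stand apart at 2.40 and 2.14, as does the unlabelled long noncoding RNA gene 2900060B14Rik at 2.25. The rises extend further from 0 than the falls.

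The number of calls depended on single arrays. Leaving out control replicates 1, 2 and 3 in turn gave 596, 574 and 702 calls. Leaving out paraquat replicates 1, 2 and 3 gave 871, 575 and 574. There were 1623 calls with array weights and 95 when tested against a change of 1.2-fold, a test in which 76 of the calls were rises and 19 were falls. The arrays also differed in how far they had moved. Among the 497 lower genes, paraquat replicate 1 was the paraquat array nearest to the controls in 300, against 67 and 88 for replicates 2 and 3. Its median difference from the control mean in these genes was -0.23, against -0.31 and -0.29. Among the 517 higher genes the medians were 0.30, 0.30 and 0.31. Paraquat replicate 1 thus lay nearer to the controls in the genes that fell and not in those that rose. The cause was not tested.

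Slc7a11 encodes the transporter that brings in cystine, the source of cysteine for glutathione, and led the rises among the genes named by rule. Its log2 level was 7.71, 7.45 and 7.80 in the control arrays and 10.12, 10.02 and 10.02 with paraquat. The groups lay far apart, with a 5.28-fold change (log2 difference 2.40 ± 0.08 SE, adjusted p = 4.38e-07 in limma). Ptgs2, the inducible cyclooxygenase that starts prostaglandin synthesis, stood at 6.46, 6.26 and 6.51 in controls and at 8.48, 8.49 and 8.69 with paraquat. Its change was 4.42-fold (2.14 ± 0.085 SE, adjusted p = 7.08e-07 in limma). Next came 3 genes of secreted or surface proteins: the peptide hormone gene Adm2 at 2.68-fold, the urokinase receptor gene Plaur at 2.51-fold and the stanniocalcin gene Stc1 at 2.47-fold. The retinol dehydrogenase Dhrs9 rose 2.32-fold and the bZIP transcription factor Creb5 2.30-fold. The rest of the 25 largest rises lay between 2.25-fold (Chac1) and 1.80-fold (Cth). In each of the 25 the paraquat arrays lay above every control array, which the rule for naming them required.

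The falls were smaller than the rises. Slc38a4, a sodium-coupled amino acid transporter of hepatocytes, stood at 9.08, 9.09 and 8.98 in controls and at 8.02, 7.95 and 7.86 with paraquat, 2.15-fold lower (-1.11 ± 0.065 SE, adjusted p = 9e-06 in limma). Onecut1, the liver transcription factor HNF6, went from 8.45, 8.55 and 8.27 to 7.39, 7.17 and 7.41, and Slc16a12, a creatine transporter, was lower to the same extent, both 2.14-fold. Slc2a2, the hepatic glucose transporter GLUT2, stood at 7.69, 7.74 and 7.60 in controls and 6.61, 6.67 and 6.69 with paraquat, 2.03-fold lower. The other 21 of the 25 largest falls lay between 1.87-fold for A1cf, a cofactor of apolipoprotein B messenger editing, and 1.52-fold for Iigp1, an interferon-inducible GTPase. Paraquat replicate 1 was the least lowered of the paraquat arrays in 19 of the 25 falls, and the least raised in 7 of the 25 rises. For Cdo1, the cysteine dioxygenase, the paraquat arrays stood at 8.43, 7.89 and 7.75 against 8.84, 8.69 and 8.51 in controls. Of the 25 falls, 3 were lost when an array was left out: Nanp without any array but paraquat replicate 1 (adjusted p 0.0670 to 0.0892 in limma), Cdo1 without the same arrays (0.0504 to 0.142) and Mrgprb3 without control replicate 1 or 2 or paraquat replicate 3 (0.0520 to 0.0613).

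**Figure D2:**
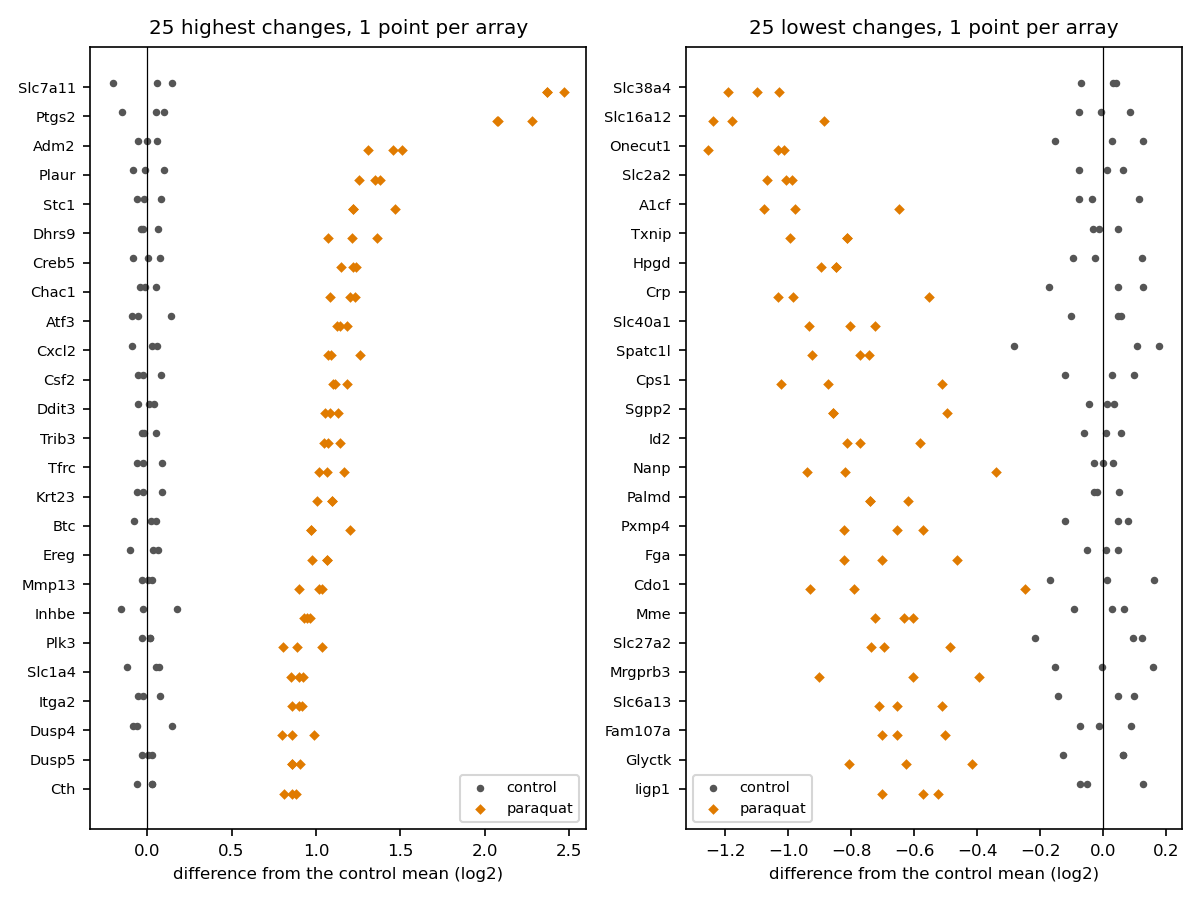
Log2 difference of each array from the control mean for the 25 largest rises (left) and the 25 largest falls (right) named by rule, with grey circles for the 3 control arrays and orange diamonds for the 3 paraquat arrays. Genes were named only where the groups lay apart, so their separation here follows from the rule; the paraquat points of falling genes such as Nanp, Cdo1 and Crp are more spread than those of rising genes.

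Many genes of the integrated stress response rose. Of 20 measured ATF4 network regulators 12 rose and 0 fell, with a median change of 0.42 against 0.00 over all genes. Atf4 itself stood at 8.79, 8.92 and 8.86 in controls and 9.50, 9.49 and 9.47 with paraquat, 1.55-fold higher (adjusted p = 2.8e-05 in limma). Ddit3, which encodes the transcription factor CHOP, went from 8.12, 8.09 and 8.02 to 9.21, 9.16 and 9.13, a 2.13-fold change. The pseudokinase gene Trib3, a target of CHOP and ATF4, rose 2.12-fold. Atf3 rose 2.22-fold, Vldlr, a lipoprotein receptor, 1.75-fold and Sesn2, an inhibitor of mTORC1 signalling, 1.62-fold. Chac1, whose product degrades glutathione, rose 2.25-fold from 7.30, 7.24 and 7.21 to 8.48, 8.45 and 8.33.

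Amino acid supply genes rose beside these regulators. Of 18 cytosolic aminoacyl-tRNA synthetases, the enzymes that charge tRNAs, 11 rose and 0 fell, with a median change of 0.18. Their changes were small, with the largest in Cars (1.28-fold), Tars (1.26-fold) and Iars (1.21-fold). Leaving out the control arrays in turn left 6, 7 and 6 rises, and leaving out the paraquat arrays in turn left 9, 5 and 5. Among the 16 mitochondrial synthetases 1 rose (Wars2), 1 fell (Cars2, lost without any single array at an adjusted p of 0.0544 to 0.154 in limma) and their median was 0.00. Of 17 genes of amino acid synthesis and one-carbon metabolism, 8 rose and 1 fell. The rises were led by Cth, which makes cysteine from cystathionine (1.80-fold), the mitochondrial folate enzyme Mthfd2 (1.70-fold), the proline synthesis gene Aldh18a1 (1.47-fold) and the serine synthesis gene Psph (1.41-fold). Asns, the asparagine synthetase, rose 1.29-fold from 10.79, 10.57 and 10.73 to 11.05, 11.09 and 11.04. The fall was in Glul, the glutamine synthetase, 1.33-fold lower, with a second fall when paraquat replicate 1 was left out.

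Amino acid transporters moved in both directions. Of 29 measured, 8 rose and 3 fell. Besides Slc7a11, the rises included Slc1a4, a carrier of small neutral amino acids (1.85-fold), Slc7a1, a carrier of cationic amino acids (1.67-fold), and Slc7a5, the light chain of the large neutral amino acid carrier (1.39-fold). Slc3a2, the heavy chain that Slc7a11 and Slc7a5 share, rose 1.22-fold, a call lost without control replicate 2 or 3 or paraquat replicate 2 (adjusted p 0.0503 to 0.0658 in limma). The falls included Slc38a4 and Slc6a13, a carrier of GABA and taurine (1.54-fold).

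Promoter windows are shown for the 5 genes among the 25 largest rises that hold a C/EBP-ATF response element, the composite site that ATF4 and its partners bind. The windows are those of RefSeq on the mouse assembly GRCm38.p6, from 250 bases before to 50 bases after the annotated start, printed 5′ to 3′ on the gene's strand, with the searched motif in capitals. The element was searched as TTGCATCA on both strands. Slc7a11, at chr3:50443564-50443863 on the minus strand, holds it at positions -66 and -47 from the start, once in each orientation. Atf3, at chr1:191183284-191183583 on the minus strand, holds it at -110. Chac1, at chr2:119350992-119351291 on the plus strand, holds it at -193. Inhbe, which encodes an activin subunit, lies at chr10:127351799-127352098 on the minus strand and holds it at -181. Slc1a4, at chr11:20332664-20332963 on the minus strand, holds it at -4.
Slc7a11: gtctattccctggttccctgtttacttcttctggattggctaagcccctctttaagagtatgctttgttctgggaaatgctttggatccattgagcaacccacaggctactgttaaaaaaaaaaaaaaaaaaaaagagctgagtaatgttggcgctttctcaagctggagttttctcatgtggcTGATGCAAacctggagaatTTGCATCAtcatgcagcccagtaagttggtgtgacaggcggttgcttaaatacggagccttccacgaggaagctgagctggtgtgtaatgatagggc
Atf3: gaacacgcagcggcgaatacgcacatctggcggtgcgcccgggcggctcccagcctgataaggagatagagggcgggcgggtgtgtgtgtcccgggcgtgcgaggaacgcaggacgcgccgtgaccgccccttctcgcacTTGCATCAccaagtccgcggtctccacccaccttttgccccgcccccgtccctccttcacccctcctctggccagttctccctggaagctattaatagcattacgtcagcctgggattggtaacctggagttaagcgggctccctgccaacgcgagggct
Chac1: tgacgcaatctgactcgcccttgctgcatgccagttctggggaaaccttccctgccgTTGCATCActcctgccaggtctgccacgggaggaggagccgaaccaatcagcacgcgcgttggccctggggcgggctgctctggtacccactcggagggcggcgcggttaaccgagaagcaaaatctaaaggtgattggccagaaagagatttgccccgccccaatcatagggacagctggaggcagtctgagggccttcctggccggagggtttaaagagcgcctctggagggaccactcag
Inhbe: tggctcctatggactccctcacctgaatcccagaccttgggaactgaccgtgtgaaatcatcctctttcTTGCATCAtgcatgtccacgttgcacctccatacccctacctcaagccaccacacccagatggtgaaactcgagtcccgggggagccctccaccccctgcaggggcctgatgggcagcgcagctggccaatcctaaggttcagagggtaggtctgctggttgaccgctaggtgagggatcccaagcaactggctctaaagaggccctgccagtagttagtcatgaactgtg
Slc1a4: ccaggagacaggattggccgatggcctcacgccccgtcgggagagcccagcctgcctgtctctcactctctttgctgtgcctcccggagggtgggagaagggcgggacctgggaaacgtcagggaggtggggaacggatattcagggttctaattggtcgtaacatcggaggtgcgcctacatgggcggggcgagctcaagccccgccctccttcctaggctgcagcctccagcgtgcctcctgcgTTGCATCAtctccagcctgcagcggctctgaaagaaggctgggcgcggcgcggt

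These letters are rare in promoters. They were found in 294 of all 32851 windows of this length (0.895%) and in 156 of the 20520 windows of genes tested (0.760%), in 5 of the 23 windows held by 21 of the 25 largest rises, and in none of the 26 windows held by 18 of the 25 largest falls. Over all called genes with a window they were in 14 of 513 windows of higher genes (2.73%) and 3 of 481 windows of lower genes (0.624%). The AP-1 motif, searched as TGANTCA, was in 7.81% of all windows, 7.24% of those of genes tested, 10.1% of those of higher genes and 4.37% of those of lower genes. The antioxidant response element, searched as TGAC followed by any 3 bases and GCA, was in 3.04%, 2.90%, 3.70% and 1.87% of the same 4 sets, and the cAMP response element, TGACGTCA, in 1.79%, 2.32%, 3.31% and 1.04%. The last 2 motifs were also searched on both strands, and the AP-1 motif reads alike on both. A window of Mmp13, the collagenase that rose 1.98-fold, is shown for its AP-1 motif at -35 (chr9:7272264-7272563, plus strand).
Mmp13: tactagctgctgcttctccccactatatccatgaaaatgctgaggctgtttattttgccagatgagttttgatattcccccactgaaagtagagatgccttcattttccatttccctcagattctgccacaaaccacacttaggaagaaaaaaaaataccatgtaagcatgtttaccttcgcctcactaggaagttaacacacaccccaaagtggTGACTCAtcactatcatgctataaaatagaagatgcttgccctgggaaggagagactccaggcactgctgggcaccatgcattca

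Matches describe letters in a window and are no measure of binding. Plaur, Ddit3, Dhrs9 and a window of Creb5 held the AP-1 motif too, at -69, -242, -18 and -45. That made 5 of the 23 windows of the largest rises, against 4 of the 26 windows of the largest falls (15.4%), held by Crp, Mme and Pxmp4. Overlapping windows of Mme held the same site. Counted by gene, the motif was in 5 of 21 of the largest rises and 3 of 18 of the largest falls. The antioxidant response element letters were in 0 windows of the largest rises and 1 of the largest falls.

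Redox genes gave a divided picture. Of 31 NRF2 regulators and targets 12 rose and 0 fell, with a median of 0.09. Hmox1, the heme oxygenase, went from 7.77, 7.69 and 7.74 to 8.34, 8.28 and 8.28, 1.48-fold higher (adjusted p = 0.000314 in limma). Bach1, a repressor of NRF2 targets, rose 1.38-fold, the efflux pump gene Abcc4 1.38-fold, Osgin1 1.33-fold, the autophagy receptor gene Sqstm1 1.25-fold and the thioredoxin reductase Txnrd1 1.16-fold. Several classical targets did not pass. Nqo1 stood at 5.46 in each control array and at 5.45, 5.63 and 5.63 with paraquat, near the bottom of the range. The subunits of the rate-limiting enzyme of glutathione synthesis, Gclc and Gclm, changed by -0.01 and -0.10 on the log2 scale, Srxn1, the sulfiredoxin, by 0.07 and Nfe2l2, which encodes NRF2, by 0.00.

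Enzymes that remove superoxide and peroxide gave a single call. Of 20 measured, 1 rose (Txnrd1) and 0 fell, with a median of -0.06. The superoxide dismutase Sod1 stood at 11.63, 11.64 and 11.56 in controls and 11.61, 11.51 and 11.57 with paraquat. The mitochondrial dismutase Sod2 went from 11.18, 11.17 and 11.19 to 11.15, 11.11 and 11.07 and did not pass (adjusted p = 0.479 in limma), although its groups did not overlap. Catalase (Cat) changed by -0.10. These 3 genes stand high in the array's range. Of 24 glutathione genes 3 rose (Slc7a11, Chac1 and Slc3a2) and 1 fell, the peroxidase gene Gpx8 (1.23-fold). Of 17 NADPH supply genes the mitochondrial folate dehydrogenase Aldh1l2 rose 1.52-fold. Nadk2, the mitochondrial NAD kinase, fell 1.17-fold, a call lost without any array but paraquat replicate 1 (adjusted p 0.0647 to 0.151 in limma). Of 17 genes for viologen reduction and cation transport 2 rose. They were Slc7a5, already counted among the amino acid transporters, and the reductase gene Cyb5r1 (1.36-fold). The share called was 5.0% for superoxide and peroxide enzymes, 16.7% for glutathione genes and 11.8% for each of the last 2 lists. It was 4.57% over all genes and 9.47% and 10.9% in the brighter level classes.

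Iron genes at the cell surface moved in opposite directions. Tfrc, the transferrin receptor that brings iron in, went from 7.86, 7.82 and 7.97 to 9.05, 8.95 and 8.90, 2.12-fold higher (adjusted p = 2.71e-06 in limma). Slc40a1, ferroportin, which lets iron out, went from 9.31, 9.30 and 9.15 to 8.53, 8.32 and 8.45, 1.77-fold lower (adjusted p = 0.000988 in limma). Slc25a37, the mitochondrial iron importer, rose 1.35-fold. Of 19 iron genes measured 3 rose and 2 fell. Slc11a2, the iron carrier DMT1, rose 1.14-fold and lost its call without any single array (adjusted p 0.0634 to 0.0878 in limma). Tfr2, a hepatocyte iron sensor, fell 1.44-fold and lost its call without any array but paraquat replicate 1 (0.0533 to 0.143). A list of 25 genes tied to ferroptosis, iron-dependent lipid peroxidation, had 7 higher and 0 lower, but 6 of the 7 had already been counted above, and the other was Gch1, the first enzyme of tetrahydrobiopterin synthesis (1.41-fold).

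Genes that answer to growth factors and MAP kinases rose in part. Of 27 immediate early and AP-1 factors 9 rose and 0 fell, among them Creb5, Atf3, the nuclear receptor Nr4a1 and Ier3 (1.57-fold each for the last 2) and Egr1 (1.51-fold, from 9.16, 9.07 and 9.18 to 9.86, 9.68 and 9.65). Of 22 MAPK feedback genes 12 rose and 0 fell, with a median of 0.22. They included the phosphatases Dusp4 (1.84-fold), Dusp5 (1.83-fold) and Dusp8 (1.42-fold), which act on MAP kinases, the cytokine Lif (1.58-fold) and the receptor signalling inhibitor Spry4 (1.55-fold). The count was 7 without paraquat replicate 2 or 3. Counted by symbol, 6 of 24 dual specificity phosphatases rose and 1 fell, and the 1 that fell was not on this list. Of 14 EGF receptor ligands and receptors the ligands Btc (2.07-fold), Ereg (2.05-fold) and Hbegf (1.67-fold) rose, and the receptor Erbb3 fell 1.41-fold. Tgfa, the ligand that the founding mice overexpressed, changed by 0.12 and Egfr by -0.09, and neither passed.

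Genes of prostaglandin handling changed at several steps. Ptgs2 rose, and Hpgd, the dehydrogenase that inactivates prostaglandins, went from 6.81, 6.74 and 6.96 to 5.99, 5.99 and 5.94, 1.82-fold lower (adjusted p = 1.72e-05 in limma). Abcc4, which also exports prostaglandins, and the receptor gene Ptger4 (1.37-fold) rose. The remaining 13 of the 17 genes on this list did not pass. Of 30 chemokines and cytokines 6 rose and 2 fell, with Cxcl2 at 2.20-fold, Csf2 at 2.19-fold and Cxcl10 at 1.36-fold. The count of falls was 0 or 1 when an array was left out. Of 21 NF-kB subunits and feedback genes, Tnfaip2 rose 1.52-fold. Rela and Nfkb2 rose 1.13-fold and 1.12-fold and the inhibitor of apoptosis Birc2 fell 1.40-fold, all 3 calls lost without control replicate 3 or paraquat replicate 2 or 3 among others (adjusted p 0.0502 to 0.180 in limma). Of 22 interferon-stimulated genes 2 rose, Rsad2 (1.30-fold) and Oasl1 (1.15-fold, lost without any array but paraquat replicate 3 at 0.0857 to 0.115). That is 9.09% called, against 4.57% over all genes and 9.47% and 10.9% in the brighter level classes.

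Rises were called in 9 of 21 genes of secreted hormones, 3 of 22 of proteases and 4 of 32 of adhesion. Of the 21 secreted stress hormone genes and their receptors 1 fell, and the rises had Adm2, Stc1, Inhbe (1.93-fold), Stc2 (1.59-fold) and Inhba (1.28-fold) at the top. The fall was lost without control replicate 1 or 2 or paraquat replicate 1 or 3. Of the plasmin and matrix protease genes Plaur, Mmp13 and the plasminogen activator Plat (1.40-fold) rose. Mmp19 fell 1.22-fold, a call lost without control replicate 1 or 2 or paraquat replicate 2 or 3 (adjusted p 0.113 to 0.155 in limma). Of the integrins and adhesion genes 1 fell, the median change was -0.01, and the rises were 2 without control replicate 2 or 3 or paraquat replicate 1 or 2. Itga2, the collagen receptor subunit, rose 1.85-fold from 9.56, 9.66 and 9.53 to 10.44, 10.48 and 10.50, while Itga1, another collagen-binding subunit, fell 1.34-fold. The tight junction gene Cldn4 rose 1.32-fold. Of 29 YAP and SRF targets 4 rose, led by Ankrd1 (1.31-fold), and the count was 1 without paraquat replicate 3. The share called in either direction was 47.6% for secreted hormones, 18.2% for proteases, 15.6% for adhesion and 13.8% for YAP and SRF targets. It was 4.57% over all genes and 9.47% and 10.9% in the brighter level classes. Id2, an inhibitor of bHLH factors, fell 1.65-fold, and Tgif1 and Smad3 of the TGF-beta pathway rose 1.37-fold and 1.30-fold. Of 35 Wnt genes 0 rose and 2 fell in limma (5.71%, against 4.57% over all genes), the receptors Lgr5 and Lgr4, by 0.58 and 0.28 on the log2 scale. Lgr4 lost its call without control replicate 1 or 3 (adjusted p 0.0703 and 0.0610 in limma). Among cholangiocyte and progenitor markers 2 of 8 rose, the keratin Krt23 (2.09-fold) and the transcription factor Sox9 (1.31-fold), while Krt7, Krt19 and Epcam did not pass. The mean over that list's markers in each array was 8.19 to 8.23 in controls and 8.34 to 8.40 with paraquat. On the log2 scale Krt23 and Sox9 changed by 1.07 and 0.39. Cftr and Epcam changed by 0.22 and 0.01, and Krt7, Krt19, Prom1 and Cd24a by -0.11, -0.06, -0.11 and -0.15, none past the test. The mean therefore does not describe a rise of the whole list.

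**Figure D3:**
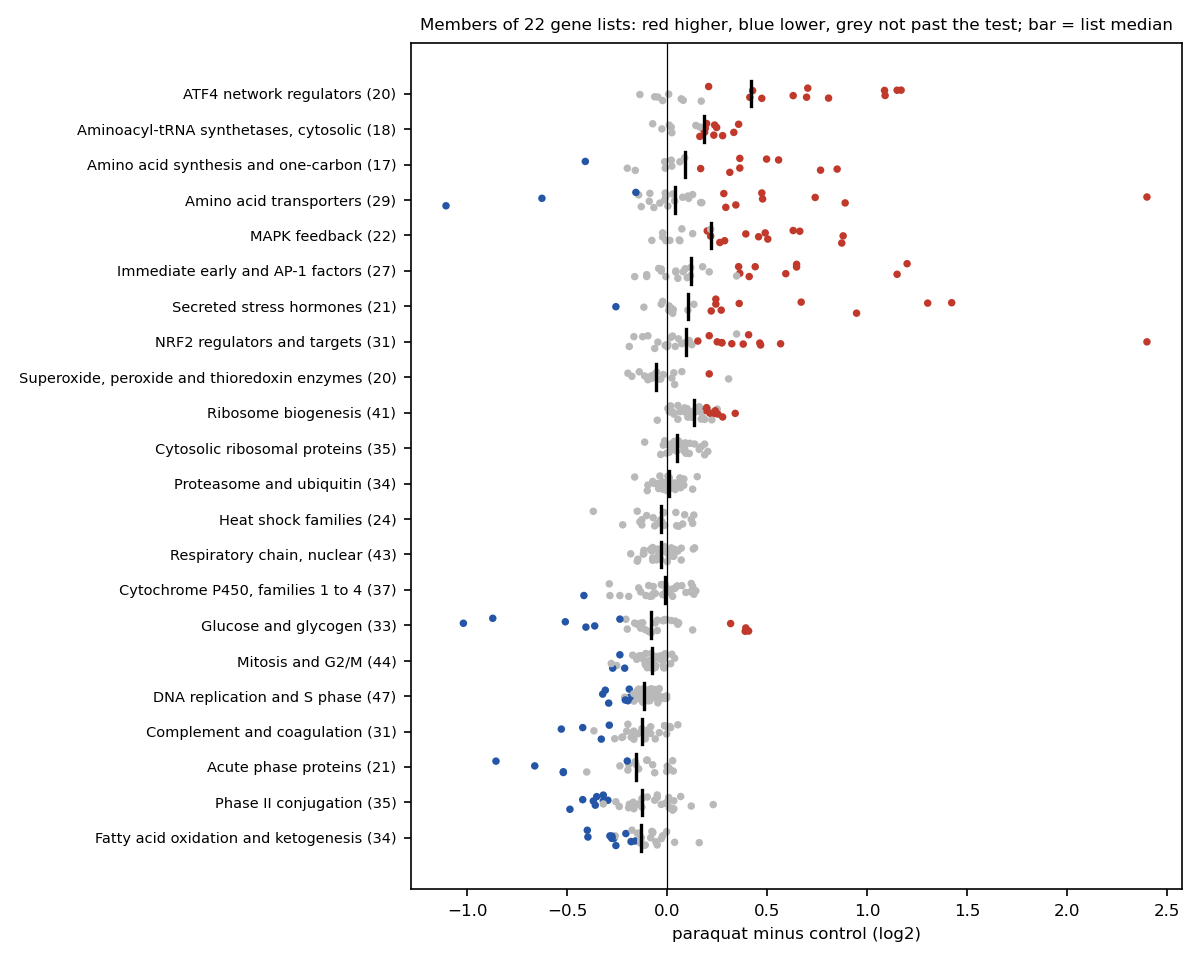
Log2 change of every measured member of 22 gene lists, with the number measured in brackets; red and blue points passed the test, grey points did not, and the black bar is the list's median. ATF4 regulators have a median of 0.42 and fatty acid oxidation genes one of -0.13, while the proteasome, heat shock and respiratory chain lists hold grey points alone.

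Genes of hepatocyte metabolism mostly fell where they changed. In bulk RNA, fewer cells of a type and less RNA per cell cannot be told apart. Of 34 genes of fatty acid oxidation and ketogenesis 11 fell and 0 rose, 32 of the 34 had a negative change, and the median was -0.13. The peroxisomal oxidase Acox2 went from 8.85, 8.89 and 8.87 to 8.53, 8.41 and 8.47, 1.32-fold lower (adjusted p = 0.000272 in limma). Eci2, an enoyl-CoA isomerase, fell 1.32-fold, Ppara, the nuclear receptor that drives these genes, 1.22-fold, and Acaa2 and Etfdh of the mitochondrial pathway 1.21-fold each. The count of falls was 6 without control replicate 1 or 2 or paraquat replicate 2 or 3, 8 without control replicate 3 and 11 without paraquat replicate 1. Of 29 genes of fatty acid and triglyceride synthesis 4 fell and none rose, with Gpam, the acyltransferase that starts triglyceride synthesis, 1.27-fold lower. Leaving out paraquat replicate 2 or 3 left 1 of these falls, and leaving out control replicate 1 or 2 left 2.

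Glucose genes moved both ways. Of 33 measured 6 fell and 4 rose. Slc2a2, the thioredoxin-interacting protein gene Txnip (1.83-fold), its relative Arrdc3 (1.33-fold) and G6pc, the glucose-6-phosphatase that releases glucose from liver cells (1.42-fold), were lower. The hexokinase Hk2 (1.33-fold) and the general glucose carrier Slc2a1 (1.31-fold) were higher. The latter pair was also counted among 23 hypoxia-response genes, of which 5 rose and 0 fell, with Vegfa and Ndrg1 at 1.61-fold each and Ero1a at 1.21-fold. Of 26 genes of insulin and IGF signalling, Irs1 fell 1.36-fold, Pik3r3 and Igf1 1.28-fold each and Irs2 1.21-fold, the last lost without control replicate 1 (adjusted p = 0.0512 in limma). Igfbp1, a binding protein of insulin-like growth factors, rose 1.40-fold with arrays at 10.21, 10.18 and 10.07 against 10.92, 10.52 and 10.47, and lost its call without any array but paraquat replicate 3 (0.0582 to 0.139).

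Nitrogen, bile acid and detoxification lists differed in their share of calls. It was 12.5% for the urea cycle and amino acid breakdown, 20.0% for bile acids, 2.7% for cytochrome P450 and 22.9% for phase II genes. In the brighter level classes 9.47% and 10.9% of all genes were called. Cps1, the first enzyme of the urea cycle, went from 8.71, 8.78 and 8.56 to 8.17, 7.66 and 7.81, 1.75-fold lower (adjusted p = 0.00304 in limma). With it 3 further genes of 32 on the urea cycle and amino acid breakdown list fell, among them Prodh2 (1.34-fold) and the glycine decarboxylase Gldc (1.28-fold), and 0 rose. The list's median was -0.03. Of 25 bile acid genes 4 fell: Nr1h4, the bile acid receptor FXR (1.39-fold), Klb, the co-receptor of FGF19-type hormones (1.34-fold), Acox2 and the sterol exporter subunit Abcg5 (1.26-fold). Without control replicate 3 there were 7 falls on this list. The canalicular exporter gene Abcc2 rose 1.19-fold, and Cyp7a1, the rate-limiting enzyme of bile acid synthesis, was dim in both groups at 4.85 and 4.91. Of 37 cytochrome P450 genes of families 1 to 4, 1 fell, Cyp2d22 (1.34-fold), with 2 falls without control replicate 3 and 3 without paraquat replicate 1. Of 35 phase II conjugation genes 8 fell and 0 rose, with a median of -0.13, led by Gstt2 (1.40-fold), Sult1d1 (1.34-fold) and Sult1a1 (1.29-fold). Gstt2 lost its call without paraquat replicate 2 (adjusted p = 0.0511 in limma). The count of 8 became 5 without control replicate 1 or 2, 10 without paraquat replicate 1, 3 without paraquat replicate 2 and 4 without paraquat replicate 3. Counted by symbol, 4 of 21 glutathione transferases fell and 2 rose, and the 2 that rose were not on this list. Close paralogs in these families can share probe sequence, and how far they do was not tested.

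Among 28 liver transcription factors 5 fell and 2 rose. Onecut1, Nr1h4, Foxa1 (1.36-fold) and Ppara were lower, with Nr5a2 (1.30-fold, lost without control replicate 1 or paraquat replicate 2 at an adjusted p of 0.0704 and 0.0529 in limma). Pparg, the fat-storage nuclear receptor, was higher, from 7.49, 7.38 and 7.54 to 8.08, 8.06 and 8.22 (1.57-fold). The count of rises was 1 without control replicate 1 or 3 or paraquat replicate 2 or 3. Hnf4a changed by -0.16 and did not pass (adjusted p = 0.119 in limma). Glucocorticoid-responsive genes had 2 of 26 higher and 4 lower, with 0 or 1 higher when any array was left out. The classical targets Fkbp5 and Tsc22d3 changed by -0.10 and -0.01 and Tat, the tyrosine aminotransferase, by 0.05, none past the test, while Zbtb16, another target, fell 1.32-fold.

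Secreted liver proteins fell in part, with a strong dependence on paraquat replicate 1. Of 21 acute phase genes 5 fell and 0 rose (median -0.16), of 31 complement and coagulation genes 4 fell and 0 rose (median -0.13), and of 22 plasma carriers and apolipoproteins 3 fell and 1 rose (median -0.10). Crp, the C-reactive protein gene, stood at 10.11, 10.19 and 9.89 in controls and at 9.51, 9.03 and 9.08 with paraquat, 1.81-fold lower (adjusted p = 0.00608 in limma). The fibrinogen chain Fga went from 8.94, 8.84 and 8.90 to 8.43, 8.19 and 8.07, 1.58-fold lower. The other fibrinogen chains fell 1.43-fold each: Fgb stood at 9.82, 9.29 and 9.34 with paraquat against 10.03, 9.98 and 10.00, and Fgg at 8.84, 8.35 and 8.23 against 8.98, 9.05 and 8.95. In both chains paraquat replicate 1 lay close to the controls and the other 2 arrays well below. Fgb and Fgg lost their calls without any array but paraquat replicate 1 (adjusted p 0.0849 to 0.181 in limma). Apoh (1.39-fold), the lectin pathway protease Masp1 (1.26-fold) and transthyretin, Ttr (1.25-fold) fell. Fetub rose 1.34-fold and lost its call without any array but paraquat replicate 2 (0.0538 to 0.125).

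Without paraquat replicate 1 the counts of falls in these 3 lists were 9, 9 and 7 in place of 5, 4 and 3. Without any other array they were 2 or 3 for the acute phase list, 1 to 3 for the complement list and 2 or 3 for the carriers. Over the 74 genes of the 3 lists, the median difference from the control mean was -0.08 in paraquat replicate 1 and -0.18 in each of replicates 2 and 3. In 48 of the 74 genes replicate 1 was the highest of the paraquat arrays. The mean over the hepatocyte markers in each array was 10.07 to 10.14 in controls and 9.88 to 10.03 with paraquat, and 4 of 15 fell. Whether the difference between arrays lies in the cells, the treatment or the preparation was not tested.

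**Figure D4:**
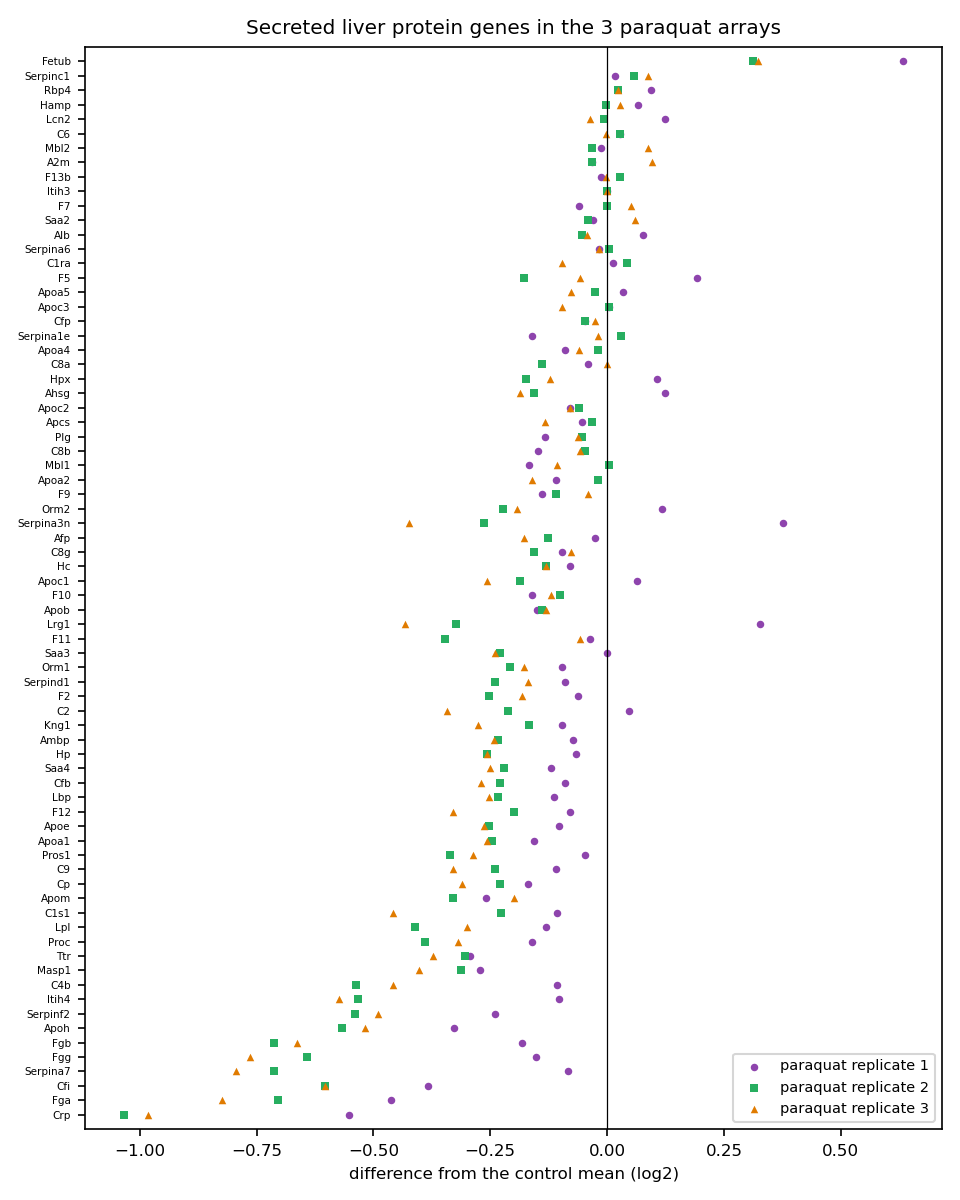
Log2 difference of each paraquat array from the control mean (x axis) for the 74 genes of the acute phase, complement and coagulation, and plasma carrier lists (rows, ordered by mean change). Purple circles, paraquat replicate 1, lie to the right of the other arrays in 48 of the 74 genes.

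Genes of ribosome assembly and of DNA replication each leaned to 1 side, with small changes. Of 41 ribosome biogenesis genes 9 rose and 0 fell, 40 of the 41 had a positive change, and the median was 0.13. Utp15, part of the small subunit processome, went from 9.09, 9.10 and 9.12 to 9.45, 9.40 and 9.48, 1.27-fold higher (adjusted p = 0.00367 in limma). Nop2, an rRNA methyltransferase, and Wdr43 rose 1.19-fold and 1.18-fold. Rrp9 rose 1.21-fold and lost its call without paraquat replicate 3 (adjusted p = 0.0503 in limma), where the list's count was 4. Over all genes, 47.1% had a positive and 50.6% a negative change. The 35 cytosolic ribosomal protein genes had 0 calls and a median of 0.05.

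All 47 measured genes of DNA replication and S phase had a negative change, with a median of -0.12. Of these 8 fell and 0 rose. After centring the arrays 2 of the 47 were positive, and after quantile normalization 1 was. Ccne1, the cyclin of S phase entry, went from 9.24, 9.15 and 9.25 to 8.89, 8.85 and 8.93, 1.25-fold lower (adjusted p = 0.00186 in limma). Prim1, a primase subunit, fell 1.24-fold and the ribonucleotide reductase Rrm2 1.16-fold, both calls lost without control replicate 1 or 3 or any paraquat array (adjusted p 0.0538 to 0.103 in limma). The count of 8 was 3 without control replicate 2 or 3 and 1 without control replicate 1 or any paraquat array. Of 44 mitosis genes 3 fell and 0 rose, which is 6.82%, against 17.0% called on the S phase list. Over all genes 4.57% were called, and 9.47% and 10.9% in the brighter level classes. Of the 44 mitosis genes 41 had a negative change. Mki67, the Ki-67 proliferation antigen, went from 10.75, 10.76 and 10.69 to 10.44, 10.48 and 10.46 (1.21-fold lower). Genes of such a list are not independent of each other, so their shared sign is a description. Of 25 p53 targets 6 rose and 0 fell, led by Plk3 (1.88-fold), Sesn2 and Plk2 (1.25-fold). The cell cycle inhibitor gene Cdkn1a rose 1.23-fold from 11.43, 11.37 and 11.44 to 11.74, 11.71 and 11.70. Of 34 DNA repair genes 1 rose and 3 fell (11.8% called), and leaving out any array left 0 rises and 0 or 1 falls.

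**Figure D5:**
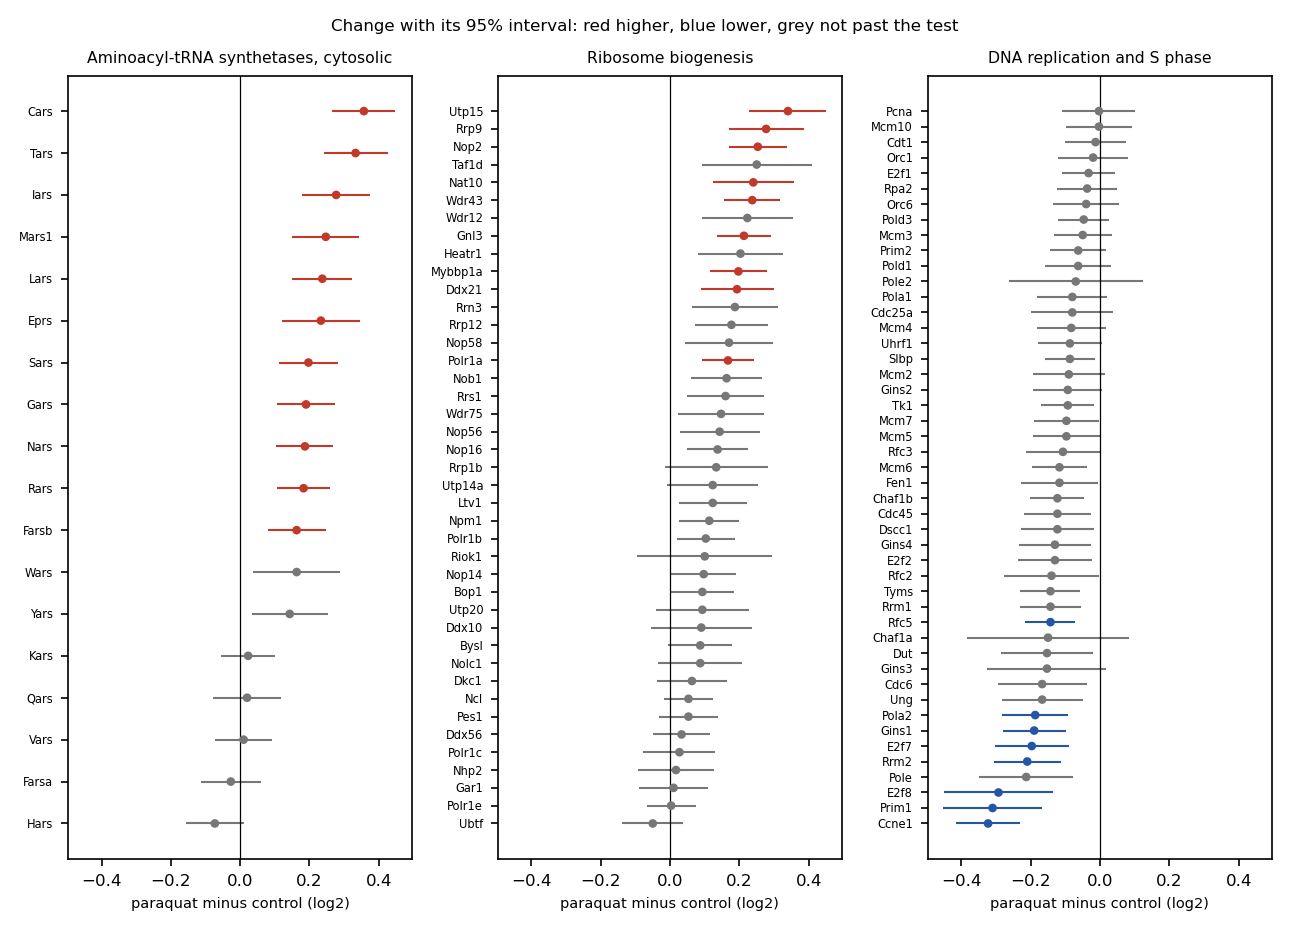
Log2 change with its 95% interval from limma for every measured member of 3 lists, ordered by size, with red and blue for genes past the test. Points of the cytosolic tRNA synthetases lie from below 0 up to Cars at 0.36, ribosome biogenesis genes lie to the right of 0 except for 1, and S phase genes lie to the left down to Ccne1 at -0.32.

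Stress and housekeeping groups differed in their share of calls, from 0 for heat shock, proteasome and respiratory chain genes to 6 of 24 for endoplasmic reticulum chaperones and the unfolded protein response. Among 24 heat shock family genes 0 passed in limma, and the 2 with the largest change were Hspa1b (-0.37, adjusted p = 0.120) and Hsf2 (-0.22, adjusted p = 0.163), neither past the test. Without paraquat replicate 1 there was 1 call in this list. Among 34 proteasome genes and 43 nuclear genes of the respiratory chain 0 passed as well, with medians of 0.01 and -0.03. Endoplasmic reticulum chaperones and unfolded protein response genes had 3 of 24 higher and 3 lower, with a median of -0.10. The sensor genes Ern1 (1.35-fold, from 9.35, 9.32 and 9.31 to 9.76, 9.79 and 9.74) and Atf6 (1.19-fold) and the oxidase gene Ero1a rose, while the chaperone partner Sdf2l1 fell 1.21-fold and Hspa5, the chaperone BiP, changed by 0.04. The count of 3 falls was 1 without any control array or paraquat replicate 2 or 3. Of 40 autophagy and lysosome genes 6 rose and 1 fell (17.5% called). The rises included Fnip1 (1.37-fold) and Flcn (1.21-fold), whose products form the folliculin complex that answers to amino acids, with Sqstm1 and Wipi2 (1.18-fold). The fall was lost without any array but paraquat replicate 1. Of 18 BCL2 family genes 1 passed, Bcl2l13 (1.15-fold lower), and that call was lost without any single array (adjusted p 0.0635 to 0.111 in limma). Aqp9, the channel for glycerol and water, rose 1.61-fold and Aqp11 fell 1.42-fold.

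The diquat arrays give a comparison within the same series, at 18 µM against 126 µM for paraquat, so the doses differ, and the 3 controls are shared by both comparisons. Between the compounds 0 of 22180 genes passed in limma. At an unadjusted p of 0.05 there were 2371, and the lowest adjusted p was 0.0553. The 95% interval of the difference lay within 1.5-fold for 22105 genes (99.7%). Paraquat against control itself had only 93 called genes of at least 1.5-fold, so this share cannot show that the compounds act alike. Slc7a11 stood at 10.20, 10.29 and 10.33 with diquat, a difference of -0.22 for paraquat minus diquat (95% interval -0.40 to -0.04, adjusted p = 0.423 in limma). Ddit3 stood at 8.86, 8.92 and 8.85 with diquat, with a difference of 0.29 (0.20 to 0.38, adjusted p = 0.119 in limma). Mmp13 stood at 8.35, 8.19 and 8.19 with diquat, with a difference of -0.39 (-0.51 to -0.27, adjusted p = 0.119 in limma). Tat, which did not pass for paraquat against control, stood at 8.33, 8.34 and 8.31 with diquat against 9.09, 8.80 and 8.82 with paraquat, a difference of 0.58 (0.42 to 0.73, adjusted p = 0.0553 in limma). Tat passed in limma in 3 alternatives, with the filter on dim genes (adjusted p = 0.0269), after quantile normalization (0.0296) and without paraquat replicate 1 (0.0368). Other genes passed in alternatives too. Mir505 did with that filter, after centring, after quantile normalization and without paraquat replicate 2 (adjusted p 0.00351 to 0.0327 in limma). Mllt11 and Prelid2 did with that filter and after quantile normalization, and Fgg and Snai2 without paraquat replicate 1. Slc7a11, Ddit3, Mmp13 and Tat, the 4 genes described here, were chosen after their values were seen. Their groups did not overlap between the compounds, as in 2338 genes (10.5%). None of the 4 passed in the fit of the deposited values over all genes and arrays. A p that misses the threshold does not show that the compounds act alike. The genes nearest the threshold for paraquat against control were Ercc1 and Klk1b11, just inside at an adjusted p of 0.0499, and Tuba1b and H1f3, just outside at 0.0502 and 0.0503 in limma.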

How the data were processed

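Total RNA of TAMH cells was measured on Affymetrix Mouse Gene 2.1 ST arrays, 3 per group. The authors deposited log2 values, made with Affymetrix Expression Console 1.1 and RMA, per the submitters' processing notes. RMA subtracts background, makes the arrays' distributions alike by quantiles and combines the probes of a feature, and changes near both ends of the range can come out compressed. The RMA settings, not given in the sources used here, could move low values. The 34472 features had values between 3.89 and 13.19 with 2 decimals. Without detection calls a low level cannot be told from background, and 3 arrays a group limit the precision.

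Of the features, 23521 carried 1 gene symbol, 1814 several and 9137 none in the platform annotation. Of the 22180 genes kept, 21994 were matched by Entrez identifier to RefSeq genes of GRCm38.p6, and 1082 had several features. Among these 1082 genes 75 were called, 52 of them with the same sign in every feature. The platform annotation's build, not given in the sources used here, keeps features from being placed, so coordinates are those of the RefSeq promoter windows alone.

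All 9 arrays entered 1 fit in limma 3.58.1 (R 4.3.3; lmFit and eBayes, 1 mean per group, no covariate), which pools the spread of the groups. Adjusted p-values are limma's with Benjamini-Hochberg adjustment over 22180 genes, two-sided, with a threshold of 0.05. Errors beside changes are limma's standard errors, and fold changes are 2 to the power of the log2 difference. In simulated data for paraquat against control with 22180 genes, a log2 change of 0.3 was found in 53 of 67 genes (79.1%), and changes of 0.5 and 1 in all 67 and 66. The 58 gene lists held 1704 entries, of which 1565 had a gene measured (1481 distinct genes), and 755 of the called genes were on no list. The members, lists and rules were chosen with earlier results of these data known, so a list's count is a description beside the share over all genes, with no test of the list. Genes named are the 25 largest rises and falls with groups apart (gene models, small RNAs and some large families left out), up to 5 called members of each list (or the 2 largest changes where none passed), 33 fixed genes of which 31 were measured, the 5 lowest adjusted p-values, and the genes nearest the threshold. Markers of other liver cells, and Bmal1 under its array name Arntl, which changed by 0.10 and did not pass, were given beside these. Alternatives were the replicate number as a block, centring or quantile normalization of the arrays, an intensity trend with a robust prior, genes above the median level, the 2 groups alone, features averaged or all tested, weights for arrays, a test against 1.2-fold and leaving out each array. Protein-coding genes alone were added after the data were seen.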

Additional observations from a re-analysis of the deposited data

How the results depend on the processing

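The 1014 calls became 1623 with array weights and 95 when tested against a fold of 1.2. They were 574 to 871 when an array of either group was left out, and 793 to 1345 under the other alternatives. The 24 genes of at least 2-fold became 45 over all features, which held 36 distinct sets of values, and 22 to 25 when an array was left out. Between paraquat and diquat the count of 0 became 4 with the filter on dim genes, 1 after centring and 4 after quantile normalization, and 0 to 3 without an array. With the replicate number as a block 930 genes passed, 854 of them among the 1014. The deviations of same-numbered control and paraquat arrays correlated at 0.157, 0.134 and 0.089, and each array correlated best with its own number, a hint from the data alone. The descriptions of some treated arrays give other numbers than their titles, so the numbers were not taken as pairs. Of 208 called genes named by rule, 61 kept their call in all 17 alternatives, 65 lost it without some array, and 0 turned in direction. The test against a fold of 1.2 is among the 17 and left 95 calls in all, so it takes the call from small changes by its construction. Of 116 list counts 94 moved by over 1.5 times in at least 1 alternative, that test included. Small counts also moved when single arrays were left out, so they are unsteady.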

Other observations

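Several noncoding RNA genes changed. They were looked at after their values were seen and lie outside the rule for named genes. The long noncoding RNA gene 2900060B14Rik stood at 7.91, 7.98 and 7.91 in controls and at 10.21, 10.21 and 10.12 with paraquat, 4.75-fold higher (adjusted p = 1.24e-07 in limma), a change between those of Slc7a11 and Ptgs2. Of 6 genes annotated as small nuclear RNAs 3 rose: Rnu3a, from 6.68, 6.72 and 6.60 to 8.26, 8.06 and 8.07 (2.76-fold), and the minor spliceosome RNAs Rnu12 (1.51-fold) and Rnu11 (1.33-fold). Of 80 small nucleolar RNAs, guides of RNA modification and processing, 6 rose and 0 fell (7.5% called), with Snord118 2.08-fold higher. Their median change was 0.24. Against 4.57% over all genes, 1.09% of 1926 long noncoding RNA genes were called (16 rose and 5 fell). Of 478 microRNA genes 1 rose and 2 fell (0.628%). The falls included Mir122, the gene of the main hepatocyte microRNA, which went from 5.91, 5.68 and 5.90 to 5.41, 5.58 and 5.51, near the bottom of the range. These arrays read total RNA and were not made for mature small RNAs.

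A further 13 genes changed by at least 1.5-fold and did not pass, 10 of them small noncoding RNAs. Some had widely spread control arrays, such as Snord13, which stood at 7.72, 9.06 and 7.85 in controls and 9.10, 8.96 and 8.82 with paraquat. Rabggtb, a prenyltransferase gene whose introns host small nucleolar RNAs, stood at 7.18, 8.19 and 7.75 in controls and 8.96, 8.67 and 8.17 with paraquat (adjusted p = 0.234 in limma).

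Among gene families counted by symbol, 18 of 361 solute carriers rose and 17 fell (9.70% called). Of 29 genes of the tumour necrosis factor superfamily 6 rose and 0 fell, of 24 dual specificity phosphatases 6 rose and 1 fell, and of 21 glutathione transferases 2 rose and 4 fell. Of 1105 olfactory receptor genes 2 passed (0.181%). Outside the genes tested, 41 of 1814 features with several symbols were higher and 11 lower, and 70 of 9137 features without a symbol were higher and 28 lower, adjusted over all 34472 features, of which 2.94% were called. Some features carried the same values on every array, so the higher ones held 30 distinct sets of values with several symbols and 62 without a symbol. The 9 features of Rnu1b1, Rnu1b2 and Rnu1b6, genes of the U1 spliceosomal RNA, were 1 such set.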
